A study of Mus musculus with 3 samples.

Results

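Adventitial fibroblasts of the neonatal mouse lung were described here as the 431 cells, of 6142 in all, that the authors' annotation calls AdvFB and that held under 500 Acta2 UMIs (unique transcript molecules) per 1e6 UMIs. The Acta2 limit set aside 49 of the 480 annotated AdvFB cells, so low smooth muscle actin is a condition of entry and not a result. They were selected on these 2 readouts, the annotated name and the Acta2 level. The mesenchyme was sorted from lungs of 7-day-old pups (postnatal day 7) and sequenced as single cells from the 3' ends of transcripts. All 3 sorted gates came from pups with the same alleles, Fgf18-CreERT2, ROSA-tdTomato and Pdgfra-EGFP, and from the same tamoxifen course from postnatal day 2 to day 5, so no gate is an untreated or Cre-free control. Fgf18-CreERT2 is a tamoxifen-dependent Cre driven from Fgf18, so tdTomato marks cells, and descendants of cells, in which Fgf18 was active during the course, and the green reporter follows Pdgfra. The gates were GFP-high tdT-high with 4 AdvFB cells of 1511, GFP-high tdT-negative with 325 of 3347, and GFP-low tdT-negative with 102 of 1284. Below, GFP-high and GFP-low mean the tdT-negative gates unless tdT-high is named. Each gate gave 1 library, and the sources used here do not say if pups were pooled, so no test was possible and no difference has a replicate check.

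Adventitial fibroblasts lie in the connective tissue cuffs around airways and large vessels, outside the alveoli. They are known for collagen and small proteoglycan production and for markers shared with progenitor-like fibroblasts of other organs, among them Pi16 and Ly6a (Sca-1). Alveolar, or matrix, fibroblasts (MatFB in the annotation) line the alveolar walls and store lipid, while alveolar myofibroblasts (MyoFB) are contractile, elastin-producing cells of the growing septa.

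AdvFB cells were set against the MatFB and MyoFB types of the same gate. MatFB types held 170 GFP-high and 1055 GFP-low cells, and MyoFB types held 2659 and 66. The make-up of MatFB differed by gate, with 110 MatFB-Im,Cuff cells of the 170 in GFP-high and 651 MatFB-Type 2 cells of the 1055 in GFP-low. AdvFB sums held 8145660 UMIs in GFP-high and 2555470 in GFP-low, with medians of 24660 and 24103 UMIs per cell, against 17819.5 and 19434 in MatFB cells and 19005 and 20611.5 in MyoFB cells. The median mitochondrial share was 1.44% and 2.16% in AdvFB cells, 2.32% and 3.62% in MatFB cells and 2.76% and 3.87% in MyoFB cells. The part of depth and of RNA quality in the differences was not tested. Levels are summed UMIs per 1e6 UMIs of the class in its gate (CPM), and intervals are exact 95% intervals for counting error alone. Where no UMI was seen, a level of up to 3 counts remains possible, or 0.368 CPM in GFP-high and 1.17 CPM in GFP-low AdvFB cells, 0.932 and 0.143 CPM in MatFB cells, and 0.0570 and 2.01 CPM in MyoFB cells. Doublets were not removed, and 3 cell barcodes were shared between the GFP-high and GFP-low libraries, 1 of them of an AdvFB cell.

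Because the annotation was made from these same transcripts, and the Acta2 limit from the Acta2 counts, all differences between AdvFB and the other classes are descriptions. At the limit, the highest AdvFB cells kept held 434.8 CPM of Acta2 in GFP-high and 419.9 CPM in GFP-low, and the lowest set aside held 508.3 and 509.2 CPM. No Acta2 UMI was found in 69.8% of the GFP-high and 62.7% of the GFP-low AdvFB cells.

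The 5 markers that define these cells were present in both gates, Ly6a and Pi16 only in part of the cells. Dcn, which encodes the collagen-binding proteoglycan decorin, stood at 6146 CPM in GFP-high and 3781 CPM in GFP-low AdvFB cells, against 409 and 15.3 CPM in MatFB cells and 8.55 and 34.2 CPM in MyoFB cells of the same gates. That was 15.02-fold (14.2 to 15.9) and 246-fold (221 to 276) over MatFB cells, and 719-fold (655 to 791) and 111-fold (84.05 to 149) over MyoFB cells. The GFP-high MatFB level of Dcn sat mostly in one annotated type, MatFB-Im,Cuff, with 626 CPM there against 15.5 CPM in MatFB-Type 1 and 18.0 CPM in MatFB-Type 2. Col14a1, a fibril-associated collagen, was at 1941 and 2169.9 CPM in GFP-high and GFP-low AdvFB cells, against 317 and 17.6 CPM in MatFB cells and 38.1 and 152 CPM in MyoFB cells. Serpinf1, which encodes the secreted factor PEDF, lay at 805 CPM in GFP-high and 427 CPM in GFP-low AdvFB cells, with 155 and 5.65 CPM in MatFB cells and 2.13 and 4.02 CPM in MyoFB cells of those gates. Pi16, a secreted peptidase inhibitor family member, was found at 217 CPM in GFP-high and 93.9 CPM in GFP-low AdvFB cells, against 24.2 and 3.42 CPM in MatFB cells and 3.87 and 4.69 CPM in MyoFB cells of the same gates. Serpinf1 and Pi16 were, like Dcn, far higher in GFP-high than in GFP-low MatFB cells. Ly6a, a GPI-anchored surface protein, stood at 184 CPM in GFP-high and 29.7 CPM in GFP-low AdvFB cells. In MatFB cells it was at 0 CPM in GFP-high and 0.0950 CPM, from 2 UMIs, in GFP-low, and in MyoFB cells at 0.171 and 0 CPM. Against the floor of 3 counts the AdvFB level of Ly6a was at least 197-fold higher than in GFP-high MatFB cells and at least 14.8-fold higher than in GFP-low MyoFB cells. All 5 markers were higher in AdvFB cells than in both other classes in both gates.

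**Figure D1:**
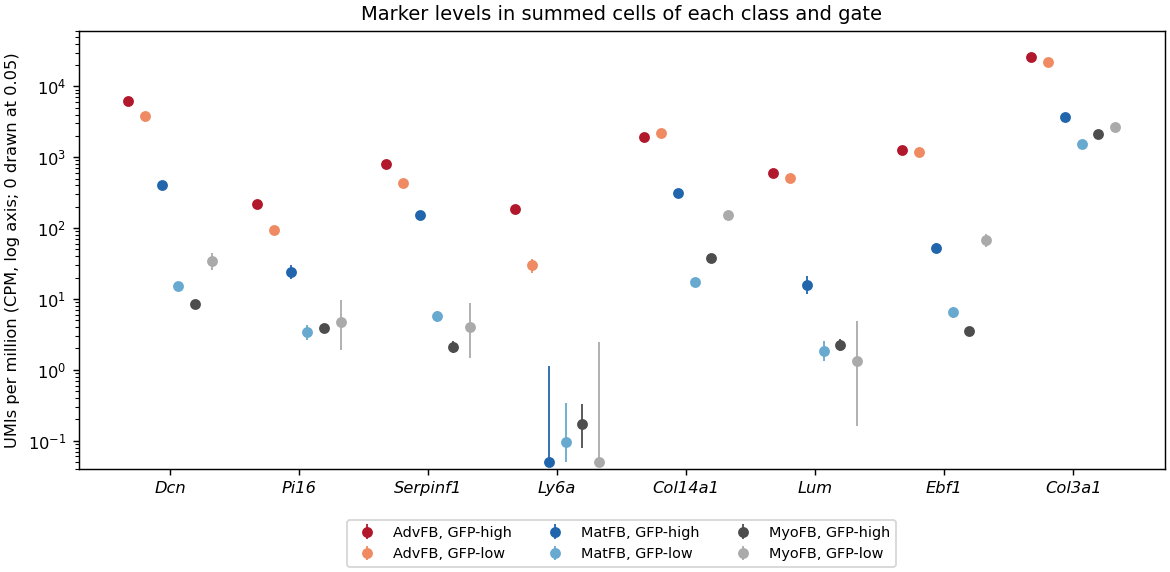
Level in CPM (log axis, 0 drawn at 0.05) of the 5 markers and of Lum, Ebf1 and Col3a1 in AdvFB, MatFB and MyoFB cells of the GFP-high and GFP-low tdT-negative gates, with exact 95% intervals of the counts as bars. Dcn in AdvFB cells is at 6146 CPM in GFP-high and 3781 CPM in GFP-low, and Ly6a is at or near 0 in MatFB and MyoFB cells of both gates.

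Median depth was highest in AdvFB cells, as given above, so shares were taken at equal depth. After each cell was thinned to 5000 UMIs, Dcn was seen in 98.8% of GFP-high and 88.2% of GFP-low AdvFB cells, against 26.5% and 3.89% of MatFB cells and 3.42% and 12.1% of MyoFB cells. Pi16 was seen in 33.8% and 11.8% of AdvFB cells, against 9.41% and 1.14% of MatFB cells and 1.65% and 1.52% of MyoFB cells. Col14a1 was seen in 93.8% and 93.1% of AdvFB cells, against 55.9% and 3.51% of MatFB cells and 12.6% and 30.3% of MyoFB cells. Ly6a was seen in 28.9% and 3.92% of AdvFB cells and in 0% of MatFB cells of both gates, and without thinning in 40.6% and 3.92% of AdvFB cells. Thus most GFP-low AdvFB cells carried Dcn and Col14a1 without a Ly6a UMI. At least 4 of the 5 markers were found together in 64.3% of GFP-high and 29.4% of GFP-low AdvFB cells, against 10.0% and 0.664% of MatFB cells and 0% of the MyoFB cells of both gates. With thinned cells these shares were 43.7% and 12.7% of AdvFB cells, against 3.53% and 0.0948% of MatFB cells.

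A gene was counted as higher or lower when the log2 ratio of CPM plus 1 passed 2-fold the same way in both gates, among genes with at least 50 CPM in either class in both gates, which are called measured below. A gene under 50 CPM in 1 class in both gates is thus measured through the other class alone. It can then be counted only as higher in that other class. Over both other classes at once, 138 of 3508 genes were higher (3.93%) and 57 lower (1.62%). Over MatFB cells, 204 of 3734 genes were higher (5.46%) and 224 lower (6.0%). Over MyoFB cells, 389 of 3970 genes were higher (9.80%) and 371 lower (9.35%). The median log2 ratio of all measured genes was -0.09 over MatFB cells and -0.22 over MyoFB cells. That median follows the scaling: TMM factors moved it up by 0.22 in GFP-high and 0.24 in GFP-low over MyoFB cells, with 498 genes then higher and 269 lower, and by 0.15 and 0.04 over MatFB cells, with 259 higher and 199 lower. Under DESeq2 size factors 512 genes were higher and 265 lower than in MyoFB cells. All ratios here are without that shift. Without the MatFB-Im,Cuff cells, a choice made after the data were seen, 349 genes were higher and 347 lower than in the 60 GFP-high and 850 GFP-low MatFB cells left. The choice of AdvFB cells rests on these contrasts, so the shares of list members given below are set beside these percentages as a description.

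The 16 genes furthest above both other classes in the least favourable of their 4 ratios were Lum, Ebf1, Tent5c, Kcnt2, Dcn, Entpd2, Dlg2, Cpe, Pi16, Mt1, Lsamp, Shisa3, Col3a1, Tnxb, Vav3 and Nrk, taken from genes with 50 CPM and a UMI in 25% of AdvFB cells in both gates. They span matrix proteins, a transcription factor, and surface and signalling proteins. The promoters of these genes, 250 bases before to 50 bases after each transcription start, were read from RefSeq on GRCm38.p6, because an EBF family factor is itself among them. Promoter entries were found for 13 of the 16, with 19 promoters. Dcn, Lum and Cpe had no entry and were not searched. Vav3 has 3 of the promoters, which overlap in part. The EBF motif, searched as TCCC and GGGA with any 2 bases between them, which reads the same on both strands, was in 2 of the 19 (10.5%), that of Tent5c and 1 of the 3 of Vav3, against 297 of all 32851 promoters (0.904%). The AP-1 motif TGACTCA, on either strand, was in 3 of the 19 (15.8%), those of Entpd2, Tnxb and Vav3, against 5.20% of all promoters, and TATAAA in 3 of the 19, those of Col3a1, Dlg2 and Vav3, against 13.6%. Among the 10 genes furthest below both classes, 6 had entries with 8 promoters, and 0 of the 8 held the EBF motif. At the share of all promoters, no match would be expected among so few, so the 0 of 8 shows no contrast. Both promoters with an EBF match are shown with that motif in capitals, and that of the marker Pi16 as one with no match to it, all 5′ to 3′ on the strand of the gene. The EBF match starts 101 bases before the start of Tent5c and 240 bases before that start of Vav3. A match of letters is no binding site by itself. The motif is rich in G and C, and so are the 2 promoters that hold it, at 78% in Tent5c and 74.3% in Vav3. The shares were not matched for base composition, and any action of an EBF factor on these genes was not tested.
Tent5c promoter (chr3:100489143-100489442, minus strand): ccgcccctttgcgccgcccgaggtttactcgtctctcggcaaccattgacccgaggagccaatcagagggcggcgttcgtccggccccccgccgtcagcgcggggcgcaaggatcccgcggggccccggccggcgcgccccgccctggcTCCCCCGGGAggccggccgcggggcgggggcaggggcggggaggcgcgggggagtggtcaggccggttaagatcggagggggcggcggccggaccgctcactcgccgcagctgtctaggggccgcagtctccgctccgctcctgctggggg
Vav3 promoter (chr3:109340433-109340732, plus strand): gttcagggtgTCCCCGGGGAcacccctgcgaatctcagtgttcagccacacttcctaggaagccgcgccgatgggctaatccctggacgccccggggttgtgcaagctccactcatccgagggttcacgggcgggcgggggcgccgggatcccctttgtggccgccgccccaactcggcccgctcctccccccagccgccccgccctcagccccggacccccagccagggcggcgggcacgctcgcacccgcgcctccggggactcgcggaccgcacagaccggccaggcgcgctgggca
Pi16 promoter (chr17:29318632-29318931, plus strand): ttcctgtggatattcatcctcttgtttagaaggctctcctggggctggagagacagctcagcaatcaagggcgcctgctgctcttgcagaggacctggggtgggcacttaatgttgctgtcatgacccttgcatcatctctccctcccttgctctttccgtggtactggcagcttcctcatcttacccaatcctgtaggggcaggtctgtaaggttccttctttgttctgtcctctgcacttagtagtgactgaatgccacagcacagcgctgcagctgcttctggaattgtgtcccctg

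The matrix genes of the 16 are given first. Lum, which encodes the collagen-binding proteoglycan lumican, was at 597 and 515 CPM in GFP-high and GFP-low AdvFB cells, against 15.8 and 1.85 CPM in MatFB cells and 2.24 and 1.34 CPM in MyoFB cells, a ratio of 37.7-fold over MatFB cells in GFP-high. Lum and Dcn are neighbours on chromosome 10 in the same orientation, Dcn at chr10:97479609-97518143 and Lum at chr10:97565128-97572703 (GRCm38, GENCODE M21, plus strand). The other proteoglycan genes of that stretch, Kera and Epyc, were at 0.859 CPM each in GFP-high and 0 in GFP-low AdvFB cells, so the high levels were those of Dcn and Lum. Col3a1, the fibrillar collagen of pliable connective tissue, lay at 25736 CPM in GFP-high and 22156 CPM in GFP-low AdvFB cells, with 3679 and 1544 CPM in MatFB cells and 2117 and 2687 CPM in MyoFB cells of those gates. Postn, the matricellular protein periostin, which is not one of the 16 but was among the furthest above MatFB cells, was found at 1855 CPM in GFP-high and 2539 CPM in GFP-low AdvFB cells, against 37.6 and 4.51 CPM in MatFB cells and 39.5 and 424 CPM in MyoFB cells of the same gates. Its ratio over MyoFB cells was 46.9-fold in GFP-high and 5.99-fold in GFP-low, where MyoFB cells carried it too. Tnxb, the tenascin that binds collagen fibrils, stood at 522 and 398 CPM in GFP-high and GFP-low AdvFB cells, against 74.6 and 10.1 CPM in MatFB cells and 20.2 and 36.9 CPM in MyoFB cells. In Lum, Col3a1, Postn and Tnxb alike, both AdvFB levels lay above all 4 levels of the other classes.

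Ebf1, a transcription factor of the early B-cell factor family that also acts in fibroblasts and fat cell precursors, was at 1255 CPM in GFP-high and 1175 CPM in GFP-low AdvFB cells, with 52.2 and 6.51 CPM in MatFB cells and 3.53 and 67.04 CPM in MyoFB cells of those gates. Its relative Ebf2 lay at 277 CPM in GFP-high and 112 CPM in GFP-low AdvFB cells, against 1.55 and 0.0475 CPM in MatFB cells and 0.646 and 21.5 CPM in MyoFB cells of the same gates. Ebf1 differed little between the AdvFB gates, while Ebf2 was 2.47-fold (2.19 to 2.81) higher in the GFP-high AdvFB cells.

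The remaining genes of the 16 act in ion transport, signalling, peptide and RNA processing or adhesion. Kcnt2, a sodium-activated potassium channel, was found at 262 and 252 CPM in GFP-high and GFP-low AdvFB cells, against 16.5 and 3.09 CPM in MatFB cells and 0.779 and 0 CPM in MyoFB cells. Entpd2, an ectonucleotidase that splits extracellular ATP, stood at 132 CPM in GFP-high and 60.3 CPM in GFP-low AdvFB cells, with 9.01 and 0.665 CPM in MatFB cells and 0.304 and 0 CPM in MyoFB cells of those gates. Cpe, carboxypeptidase E, which trims peptide hormones, was at 146 CPM in GFP-high and 220.3 CPM in GFP-low AdvFB cells, against 14.3 and 0.618 CPM in MatFB cells and 4.12 and 15.4 CPM in MyoFB cells of the same gates. Kcnt2 and Entpd2 were close to 0 in MyoFB cells, with 0 UMIs in GFP-low, while Cpe was not. Vav3, a guanine nucleotide exchange factor for small GTPases, lay at 103 and 221 CPM in GFP-high and GFP-low AdvFB cells, against 14.6 and 0.713 CPM in MatFB cells and 0.551 and 4.69 CPM in MyoFB cells. It ran against the gate pattern of Pi16 and Ly6a, being 2.15-fold (1.93 to 2.39) lower in GFP-high than in GFP-low AdvFB cells. Tent5c, a cytoplasmic poly(A) polymerase, was found at 106 CPM in GFP-high and 68.9 CPM in GFP-low AdvFB cells, with 5.28 and 2.04 CPM in MatFB cells and 1.46 and 1.34 CPM in MyoFB cells of those gates. The metal-binding protein Mt1 stood at 247 CPM in GFP-high and 233 CPM in GFP-low AdvFB cells, against 28.9 and 7.93 CPM in MatFB cells and 11.9 and 27.5 CPM in MyoFB cells of the same gates.

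**Figure D2:**
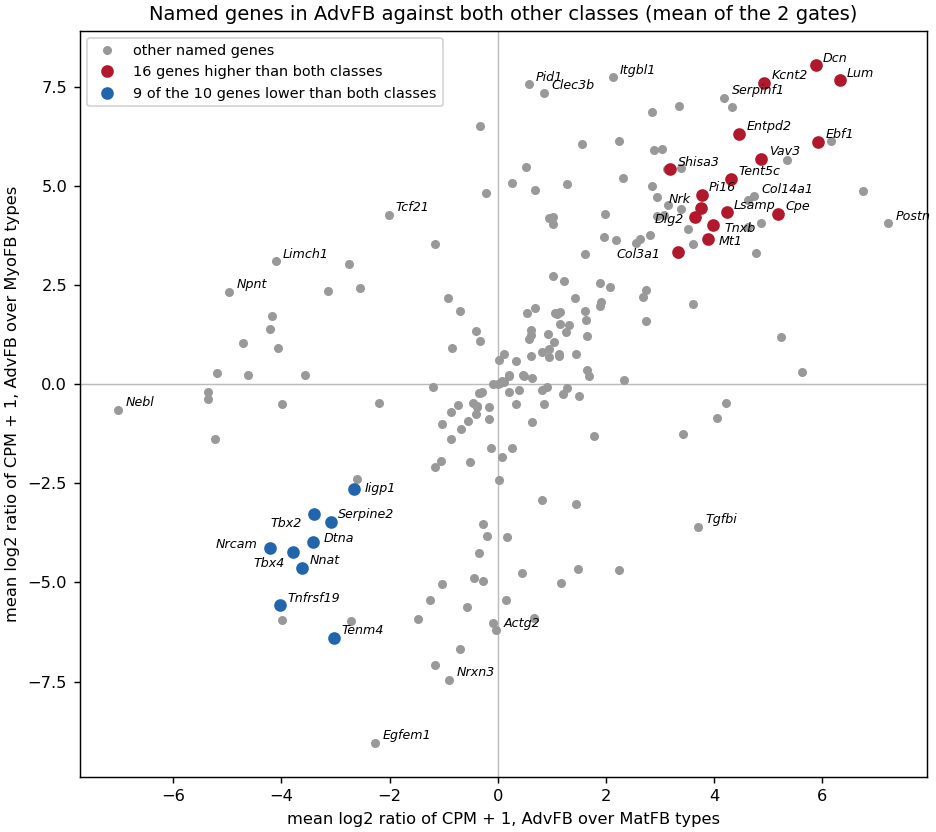
Mean over the GFP-high and GFP-low gates of the log2 ratio of CPM plus 1, in AdvFB over MatFB cells (horizontal axis) and over MyoFB cells (vertical axis), for named genes. The 16 genes higher than both classes are red at the upper right, 9 of the 10 lower ones are blue at the lower left, and Limch1 and Tcf21 lie at the upper left, lower than in MatFB and higher than in MyoFB cells.

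The 10 genes furthest below both classes included Tnfrsf19, Tbx4, Nrcam, Nnat, Serpine2, Tbx2, Dtna, Tenm4 and Iigp1. Among them were 2 T-box transcription factors of lung mesenchyme. Tbx4, which is required for lung mesenchyme development and marks it among organs, was at 18.3 and 21.1 CPM in GFP-high and GFP-low AdvFB cells, against 235 and 344 CPM in MatFB cells and 473 and 319 CPM in MyoFB cells. It was 12.9-fold and 16.3-fold lower than in MatFB cells and 25.8-fold and 15.1-fold lower than in MyoFB cells. Tbx2 lay at 27.9 CPM in GFP-high and 28.96 CPM in GFP-low AdvFB cells, with 231 and 410.3 CPM in MatFB cells and 304 and 265 CPM in MyoFB cells of those gates. A related gene, Tbx5, was found at 38.4 CPM in GFP-high and 26.2 CPM in GFP-low AdvFB cells, against 76.4 and 147 CPM in MatFB cells and 261 and 208 CPM in MyoFB cells of the same gates, and its lower level passed 2-fold in both gates over MyoFB cells but not over MatFB cells. Tbx4 and Tbx2, but not Tbx5, were thus counted as lower than both classes.

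Tnfrsf19, a receptor of the TNF receptor family, stood at 4.05 and 7.83 CPM in GFP-high and GFP-low AdvFB cells, against 108 and 108 CPM in MatFB cells and 308 and 326 CPM in MyoFB cells. Serpine2, a secreted inhibitor of serine proteases (protease nexin 1), was at 28.5 CPM in GFP-high and 46.96 CPM in GFP-low AdvFB cells, with 260.0 and 388 CPM in MatFB cells and 361 and 480.0 CPM in MyoFB cells of those gates. The next are adhesion molecules best known from neurons. Nrcam, a cell adhesion molecule of the L1 family, lay at 18.4 CPM in GFP-high and 19.2 CPM in GFP-low AdvFB cells, against 308 and 435 CPM in MatFB cells and 603 and 199.8 CPM in MyoFB cells of the same gates. Tenm4, a teneurin, was found at 18.5 and 5.87 CPM in GFP-high and GFP-low AdvFB cells, against 128 and 68.7 CPM in MatFB cells and 1361 and 695 CPM in MyoFB cells. In each of these, both AdvFB levels lay below all 4 levels of the other classes. A single GFP-low AdvFB cell held 59.2% of the Nrcam UMIs there, and without it the level was 7.94 CPM. Tnfrsf19 had 40% of its GFP-low AdvFB UMIs in 1 cell and was at 4.73 CPM without it. With only the most frequent MyoFB type of each gate, Nrcam was instead higher in GFP-low AdvFB cells, with a log2 ratio of 1.96.

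Against MatFB cells, the genes furthest below were alveolar fibroblast genes. Nebl, an actin-binding nebulin relative, stood at 3.81 CPM in GFP-high and 30.9 CPM in GFP-low AdvFB cells, against 875 and 2928 CPM in MatFB cells, which was 230.0-fold (162 to 339) and 94.7-fold (76 to 119.7) lower. In GFP-low 1 cell held 60.8% of the AdvFB Nebl UMIs, and without it the level was 12.3 CPM, 238-fold lower than in MatFB cells. Limch1, an activator of non-muscle myosin, was at 189 CPM in GFP-high and 179.6 CPM in GFP-low AdvFB cells, against 2401 and 4206 CPM in MatFB cells. Npnt, the integrin ligand nephronectin, lay at 34.5 CPM in GFP-high and 41.9 CPM in GFP-low AdvFB cells, against 771 and 1924 CPM in MatFB cells. A single cell held 35.5% of the GFP-low AdvFB UMIs of Npnt, which was at 27.4 CPM without it. All 3 genes were higher still in GFP-low than in GFP-high MatFB cells. Macf1, a linker of microtubules and actin, was found at 334 CPM in GFP-high and 442 CPM in GFP-low AdvFB cells, against 3797 and 9763 CPM in MatFB cells. Of 17 alveolar fibroblast markers, 12 were measured and 11 were lower in AdvFB than in MatFB cells, with none higher and a median log2 ratio of -4.04. Fgf10, a growth factor for the epithelium, was among them at 41 CPM in GFP-high and 30.5 CPM in GFP-low AdvFB cells, against 249 and 260.2 CPM in MatFB cells. The microfibril protein Mfap4 was the exception, at 2446 CPM in GFP-high and 2420.3 CPM in GFP-low AdvFB cells, against 3659 and 8004 CPM in MatFB cells.

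Tcf21, a transcription factor of mesenchymal lineages, lay between the classes. Its level was 163 CPM in GFP-high and 230.1 CPM in GFP-low AdvFB cells, with 605 and 1021 CPM in MatFB cells and 6.14 and 13.4 CPM in MyoFB cells of those gates. The AdvFB level was 3.71-fold and 4.44-fold lower than in MatFB cells and 26.6-fold and 17.2-fold higher than in MyoFB cells. Limch1 and Mfap4 were likewise counted as higher than in MyoFB cells.

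Against MyoFB cells, several genes were near-absent on one side. Itgbl1, an integrin beta-like secreted protein, stood at 234 CPM in GFP-high and 296 CPM in GFP-low AdvFB cells, against 240.1 and 14.2 CPM in MatFB cells and 0.551 and 0 CPM in MyoFB cells of the same gates. Pid1, a phosphotyrosine interaction domain protein, was at 1080.3 and 857 CPM in GFP-high and GFP-low AdvFB cells, against 1047 and 401 CPM in MatFB cells and 2.13 and 7.37 CPM in MyoFB cells. Clec3b, the plasminogen-binding protein tetranectin, lay at 1234 CPM in GFP-high and 762 CPM in GFP-low AdvFB cells, with 521 and 544 CPM in MatFB cells and 4.62 and 5.36 CPM in MyoFB cells of those gates. These 3 were low or absent in MyoFB cells of both gates. In all 3 the GFP-high MatFB level was also far above both MyoFB levels, so AdvFB cells shared these genes with MatFB cells.

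Of 12 alveolar myofibroblast markers, 11 were measured against MyoFB cells, of which 8 were lower and none higher, with a median of -3.59. Tgfbi, a matrix protein induced by TGF-beta, was found at 163 CPM in GFP-high and 119 CPM in GFP-low AdvFB cells, against 50.9 and 1.24 CPM in MatFB cells and 1879 and 1539.8 CPM in MyoFB cells of the same gates. Fgf18, the growth factor whose locus drives the Cre, was at 3.19 CPM in GFP-high and 3.13 CPM in GFP-low AdvFB cells, against 62.1 and 57.0 CPM in MyoFB cells. Egfem1 stood at 122 CPM in GFP-high and 0.783 CPM in GFP-low AdvFB cells, against 11208 and 5443 CPM in MyoFB cells. Of 15 smooth muscle contractile genes, 13 were measured and 12 were lower than in MyoFB cells (median -3.72), which includes Acta2 itself. Tagln, the actin-binding protein transgelin, was at 17.4 and 55.2 CPM in GFP-high and GFP-low AdvFB cells, against 81.1 and 96.8 CPM in MatFB cells and 1719 and 2193 CPM in MyoFB cells. Mylk, the myosin light chain kinase, was lower than in both classes, at 151 CPM in GFP-high and 171 CPM in GFP-low AdvFB cells, with 811 and 1185 CPM in MatFB cells and 783 and 934 CPM in MyoFB cells of those gates. The choice of cells by Acta2 bears on this list. Pdgfra, whose reporter set the gates, lay at 263 CPM in GFP-high and 249.7 CPM in GFP-low AdvFB cells, against 262 and 156 CPM in MatFB cells and 492 and 272 CPM in MyoFB cells of the same gates, and the reporter transcript H2BGFP at 99.0 CPM in GFP-high and 94.3 CPM in GFP-low AdvFB cells, against 231 and 154 CPM in MyoFB cells. In AdvFB cells neither transcript differed 2-fold between the gates. The gates were sorted on green fluorescence, that is on reporter protein, which was not measured here.

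The adventitial progenitor list held 30 genes, of which 19 were measured. Over MatFB cells 12 were higher and none lower (median 2.81), over MyoFB cells 14 were higher and none lower (median 4.86), and 8 were higher than both. The list was drawn up with these cells in view and holds the 5 defining markers, so it does not speak for the label independently. Mfap5, a microfibril protein, was found at 1596 and 933 CPM in GFP-high and GFP-low AdvFB cells, against 589 and 111 CPM in MatFB cells and 10.5 and 25.5 CPM in MyoFB cells. Cd34, a sialomucin of progenitor and endothelial cells, stood at 409 CPM in GFP-high and 268 CPM in GFP-low AdvFB cells, with 220.3 and 102 CPM in MatFB cells and 262 and 95.2 CPM in MyoFB cells of those gates. Dpt, which encodes the matrix protein dermatopontin, was at 1271 CPM in GFP-high and 1308 CPM in GFP-low AdvFB cells, against 640.0 and 1006 CPM in MatFB cells and 25.8 and 69.7 CPM in MyoFB cells of the same gates. Neither was counted as higher than in MatFB cells, and both were present in all classes. Among the 11 members under the minimum were Ly6a and, also on chromosome 15, Ly6c1, at 64.9 CPM in GFP-high and 11.7 CPM in GFP-low AdvFB cells, with 1 UMI in all GFP-high and 3 UMIs in all GFP-low MatFB cells.

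**Figure D3:**
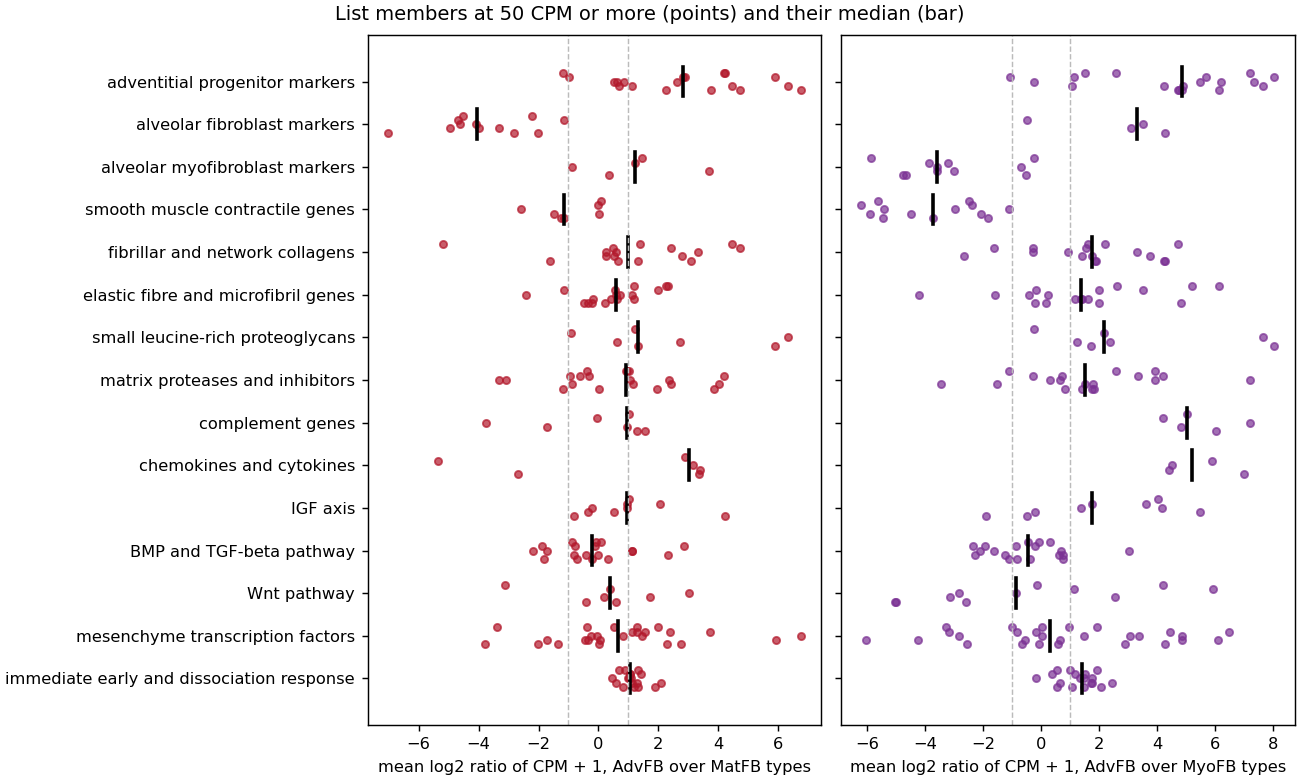
Mean log2 ratio of CPM plus 1 over both gates for each measured list member (points), with the list's median (bar) and lines at 2-fold, in AdvFB over MatFB cells (left) and over MyoFB cells (right). The adventitial progenitor medians are 2.81 and 4.86, the alveolar fibroblast median over MatFB cells is -4.04 and the contractile median over MyoFB cells is -3.72.

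Fibrillar and network collagens took 72633 CPM in GFP-high and 64738 CPM in GFP-low AdvFB cells in sum, against 17055 and 8188 CPM in MatFB cells and 7490.1 and 9365 CPM in MyoFB cells. Of 30 genes, 16 were measured against MatFB cells, with 7 higher and 2 lower (median 0.98), and 17 against MyoFB cells, with 12 higher and 1 lower (median 1.77). Col1a1, a chain of type I collagen, lay at 18561 and 17168 CPM in GFP-high and GFP-low AdvFB cells, against 3505 and 1272 CPM in MatFB cells and 767 and 1111 CPM in MyoFB cells. Col5a1, a chain of the fibril-nucleating type V collagen, was found at 989 CPM in GFP-high and 1031 CPM in GFP-low AdvFB cells, with 346 and 103 CPM in MatFB cells and 324 and 359 CPM in MyoFB cells of those gates. Col15a1, found beside basement membranes, stood at 211 CPM in GFP-high and 311 CPM in GFP-low AdvFB cells, against 63.1 and 1.14 CPM in MatFB cells and 12.2 and 12.7 CPM in MyoFB cells of the same gates. Types I, III, V, XIV and XV made up the 7 genes higher than both classes. The basement membrane chain Col4a1 was not among them, at 764 and 855 CPM in GFP-high and GFP-low AdvFB cells, against 751 and 613 CPM in MatFB cells and 991 and 976 CPM in MyoFB cells. Col13a1, a transmembrane collagen known as a marker of alveolar fibroblasts, was lower than in MatFB cells, at 5.89 CPM in GFP-high and 11.3 CPM in GFP-low AdvFB cells, against 245 and 463 CPM in MatFB cells. A single GFP-low AdvFB cell held 58.6% of its UMIs there, and the level was 4.76 CPM without it.

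Elastic fibre genes had smaller median ratios than the collagens. Of 22, 18 were measured against each class, with 2 higher and 1 lower than MatFB cells (median 0.58) and 10 higher and 2 lower than MyoFB cells (median 1.39). Eln, tropoelastin, was at 3742 CPM in GFP-high and 6885 CPM in GFP-low AdvFB cells, with 8434 and 4853 CPM in MatFB cells and 5970.0 and 5808 CPM in MyoFB cells of those gates, and passed 2-fold over neither class in both gates. Efemp2, a fibulin needed for elastic fibre assembly, lay at 129.6 CPM in GFP-high and 101 CPM in GFP-low AdvFB cells, against 60.6 and 40.5 CPM in MatFB cells and 53.4 and 46.3 CPM in MyoFB cells of the same gates. Ltbp2, a microfibril-associated protein, was lower than in both classes, at 36.2 and 41.5 CPM in GFP-high and GFP-low AdvFB cells, against 439 and 103 CPM in MatFB cells and 849 and 635 CPM in MyoFB cells. Of 17 small leucine-rich proteoglycans, 7 were measured, with 3 higher than both classes, namely Dcn, Lum and Podn, and 5 higher than MyoFB cells (medians 1.31 and 2.16). Ogn, osteoglycin, was not one of the 3, at 931 CPM in GFP-high and 561 CPM in GFP-low AdvFB cells, with 1524 and 1239 CPM in MatFB cells and 50.1 and 511 CPM in MyoFB cells of those gates.

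Of 28 matrix proteases and inhibitors, 20 were measured against MatFB cells, with 6 higher and 2 lower (median 0.93), and 19 against MyoFB cells, with 11 higher and 2 lower (median 1.52). Adamts5, a proteoglycan-cleaving protease, was found at 403 CPM in GFP-high and 259 CPM in GFP-low AdvFB cells, against 105 and 36.5 CPM in MatFB cells and 8.79 and 45.6 CPM in MyoFB cells of the same gates. Mmp16, a membrane-bound metalloproteinase, stood at 127 and 200.4 CPM in GFP-high and GFP-low AdvFB cells, against 40.7 and 1.95 CPM in MatFB cells and 2.75 and 28.8 CPM in MyoFB cells. Both were higher than in either class. Adamts17, another member of the Adamts family, was lower than in both classes, at 68.1 CPM in GFP-high and 92.4 CPM in GFP-low AdvFB cells, with 585 and 1112 CPM in MatFB cells and 214 and 251 CPM in MyoFB cells of those gates. The collagen-cleaving surface protease Mmp14 did not pass 2-fold over either class in both gates, at 477 CPM in GFP-high and 584 CPM in GFP-low AdvFB cells, against 393 and 189 CPM in MatFB cells and 296 and 354 CPM in MyoFB cells of the same gates.

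Of 23 chemokines and cytokines, 6 were measured against MatFB cells, with 4 higher and 2 lower (median 3.02), and 4 against MyoFB cells, all higher (median 5.21). The 4 higher than both classes were Cxcl12, Ccl11, Cxcl1 and Il6. Cxcl12, the ligand of CXCR4, was at 295 and 188 CPM in GFP-high and GFP-low AdvFB cells, against 45.98 and 14.2 CPM in MatFB cells and 3.68 and 22.1 CPM in MyoFB cells. Ccl11, the eosinophil attractant eotaxin, lay at 256 CPM in GFP-high and 182 CPM in GFP-low AdvFB cells, with 42.9 and 9.31 CPM in MatFB cells and 0.190 and 1.34 CPM in MyoFB cells of those gates. Cxcl1, a neutrophil attractant, was found at 183 CPM in GFP-high and 160.4 CPM in GFP-low AdvFB cells, against 34.2 and 6.75 CPM in MatFB cells and 10.5 and 4.69 CPM in MyoFB cells of the same gates. In GFP-high all 3 were lowest in MyoFB cells, and in GFP-low Cxcl12 was lowest in MatFB cells. Il6, an inflammatory cytokine, stood at 65.9 CPM in GFP-high and 64.6 CPM in GFP-low AdvFB cells, against 30.4 and 1.52 CPM in MatFB cells. In GFP-low 1 cell held 26.7% of the Il6 UMIs, and without it Il6 was at 48.2 CPM, under the minimum. Cxcl1 and Il6 are inducible genes. The immediate early and dissociation list, given below, had 10 of 18 measured genes higher than in MyoFB cells and 0 higher than in MatFB cells. The part of the dissociation response in Cxcl1 and Il6 was not tested.

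Of 18 complement genes, 7 were measured against MatFB cells, with none higher and 2 lower (median 0.94), and 5 against MyoFB cells, all 5 higher (median 5.04). Serping1, the C1 inhibitor, was at 1765 and 873 CPM in GFP-high and GFP-low AdvFB cells, against 767 and 487 CPM in MatFB cells and 69.9 and 63.01 CPM in MyoFB cells. C7, a terminal pathway component, was lower than in MatFB cells, at 37.1 CPM in GFP-high and 5.09 CPM in GFP-low AdvFB cells, against 120.2 and 342 CPM in MatFB cells. All 18 complement genes summed to 155 and 175 CPM in GFP-high and GFP-low MyoFB cells. The measured ones other than Serping1 thus passed the minimum largely through AdvFB cells, and the minimum largely set the 5 of 5. By this rule none was higher than in MatFB cells, against 1 under TMM or DESeq2 scaling and 3 without MatFB-Im,Cuff cells.

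Signalling lists were mixed in direction. Of 33 Wnt pathway genes, 7 were measured against MatFB cells, with 2 higher and 1 lower (median 0.39), and 11 against MyoFB cells, with 3 higher and 5 lower (median -0.87). Sfrp1, a secreted Wnt inhibitor, lay at 162 CPM in GFP-high and 144 CPM in GFP-low AdvFB cells, with 40.7 and 7.41 CPM in MatFB cells and 1.12 and 2.01 CPM in MyoFB cells of those gates. Fzd4, a Wnt and norrin receptor, was found at 125 CPM in GFP-high and 106 CPM in GFP-low AdvFB cells, against 31.1 and 37.7 CPM in MatFB cells and 3.06 and 8.71 CPM in MyoFB cells of the same gates. Both act at or outside the cell surface. The ligand Wnt5a was lower than in MyoFB cells, at 92.7 CPM in GFP-high and 62.6 CPM in GFP-low AdvFB cells, against 501 and 437 CPM in MyoFB cells. Of 35 BMP and TGF-beta genes, 19 were measured against each class, with 2 higher and 3 lower than MatFB cells (median -0.21) and 1 higher and 6 lower than MyoFB cells (median -0.45). Gdf10, a BMP family ligand, was the 1 gene higher than both classes, at 169 and 172 CPM in GFP-high and GFP-low AdvFB cells, against 47.2 and 10.5 CPM in MatFB cells and 22.8 and 17.4 CPM in MyoFB cells. Tgfbr2, the type II TGF-beta receptor, was lower than in MatFB cells, at 172 CPM in GFP-high and 148 CPM in GFP-low AdvFB cells, against 514 and 540.4 CPM in MatFB cells. Tgfb2, a ligand, was lower than in MyoFB cells, at 94.7 CPM in GFP-high and 146 CPM in GFP-low AdvFB cells, against 495 and 423 CPM in MyoFB cells.

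Of 13 IGF axis genes, 9 were measured against each class, with 1 higher than MatFB cells (median 0.95) and 6 higher and 1 lower than MyoFB cells (median 1.76). The binding protein Igfbp4 stood at 1484 CPM in GFP-high and 1071 CPM in GFP-low AdvFB cells, with 866 and 447 CPM in MatFB cells and 54.2 and 107 CPM in MyoFB cells of those gates, and the ligand Igf1 at 276 CPM in GFP-high and 107 CPM in GFP-low AdvFB cells, against 486 and 191 CPM in MatFB cells and 656 and 639 CPM in MyoFB cells of the same gates. Of 13 hedgehog pathway genes, 8 were measured against each class, with 1 higher over each, and 1 lower than in MyoFB cells (medians -0.09 and 0.28). Cdon, a hedgehog co-receptor, was that gene, at 162 and 75.9 CPM in GFP-high and GFP-low AdvFB cells, against 71.1 and 3.52 CPM in MatFB cells and 3.13 and 18.1 CPM in MyoFB cells. The receptor and target Ptch1 was lower than in MyoFB cells, at 150.1 CPM in GFP-high and 159.7 CPM in GFP-low AdvFB cells, against 310.1 and 425 CPM in MyoFB cells. Of 20 PDGF and FGF genes, 10 were measured against MatFB cells, with none higher and 4 lower (median -0.30), and 8 against MyoFB cells, with 1 higher and 3 lower (median -0.50). Besides Fgf10, these 4 were Fgf7 and the receptors Fgfr3 and Fgfr4.

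Of 39 mesenchyme transcription factors, 26 were measured against MatFB cells, with 7 higher and 4 lower (median 0.66), and 28 against MyoFB cells, with 11 higher and 6 lower (median 0.32). Besides Ebf1 and Ebf2, those higher than both classes were Klf4, Osr1 and Gata6. Gata6, a zinc finger factor of mesodermal organs, was at 140.1 CPM in GFP-high and 175 CPM in GFP-low AdvFB cells, with 42.6 and 11.3 CPM in MatFB cells and 6.23 and 30.2 CPM in MyoFB cells of those gates. Osr1, a marker of connective tissue progenitors in the embryo, lay at 291 CPM in GFP-high and 196 CPM in GFP-low AdvFB cells, against 91.96 and 25.4 CPM in MatFB cells and 22.5 and 34.2 CPM in MyoFB cells of the same gates. Both differed under 2-fold between the AdvFB gates. Klf4, a zinc finger factor, was found at 489 and 301 CPM in GFP-high and GFP-low AdvFB cells, against 243 and 21 CPM in MatFB cells and 37.6 and 67.7 CPM in MyoFB cells. Prrx1, a homeobox factor of limb and connective tissue mesenchyme, was higher than in MyoFB cells alone, at 322 CPM in GFP-high and 264 CPM in GFP-low AdvFB cells, with 202 and 71.1 CPM in MatFB cells and 5.89 and 25.5 CPM in MyoFB cells of those gates.

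Klf4 and Il6 are inducible genes that the immediate early list does not hold, and the summed level of that list was higher in AdvFB cells too. Its 19 genes summed to 12112 CPM in GFP-high and 10264 CPM in GFP-low AdvFB cells, against 8751 and 2742 CPM in MatFB cells and 4076 and 4537 CPM in MyoFB cells. Of the 19, 18 were measured against each class, with none higher than MatFB cells in both gates and 10 higher than MyoFB cells, none lower (medians 1.07 and 1.42). Fos stood at 1922 CPM in GFP-high and 1509 CPM in GFP-low AdvFB cells, against 1226 and 382 CPM in MatFB cells and 522 and 709 CPM in MyoFB cells of the same gates. The part of the response to tissue dissociation in these differences was not tested.

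Epithelial and immune markers were low in AdvFB cells, while endothelial markers summed to more than in the other classes. In GFP-high and GFP-low AdvFB cells, 1 of 12 epithelial and 1 of 12 immune markers reached 10 CPM, with sums of 32.9 and 31.7 CPM and of 37.7 and 25.8 CPM. Epcam was at 0.246 and 0 CPM, and Ptprc at 1.47 and 0 CPM. The mesothelial sum of 55.6 and 52.0 CPM came almost wholly from Nkain4, at 52.2 and 49.7 CPM, with Msln at 0 in both gates. Endothelial markers summed to 322 CPM in GFP-high and 232 CPM in GFP-low AdvFB cells, against 60.9 and 39.3 CPM in MatFB cells and 87.5 and 53.0 CPM in MyoFB cells. Of the 12, 2 were measured and both were higher than in both classes, namely Tek, the angiopoietin receptor, at 125 CPM in GFP-high and 79.8 CPM in GFP-low AdvFB cells, and Ramp2, a co-receptor for adrenomedullin, at 155 CPM in GFP-high and 112 CPM in GFP-low AdvFB cells. The defining endothelial genes Cdh5, at 0.491 and 3.13 CPM, and Cldn5, at 0.123 and 0 CPM, were at or near 0 in the same cells. Pecam1, another defining endothelial gene, was not, at 33.5 and 28.2 CPM in GFP-high and GFP-low AdvFB cells, against 13.7 and 10.8 CPM in MatFB cells and 20 and 6.70 CPM in MyoFB cells. The other 7 markers stayed under 10 CPM, and the part of endothelial RNA was not tested. In GFP-low the MatFB sum of all 12 was 39.3 CPM, so Tek and Ramp2 were measured there only through AdvFB cells. Pericyte markers were mixed, with Abcc9, a potassium channel subunit, at 193 CPM in GFP-high and 146 CPM in GFP-low AdvFB cells, with 133 and 14.4 CPM in MatFB cells and 16.3 and 47.6 CPM in MyoFB cells of those gates, and Higd1b at 0.246 and 1.57 CPM in AdvFB cells. No G2 or mitosis gene of 18 reached 10 CPM in AdvFB cells of either gate.

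Between gates, 66 of 3664 measured genes were at least 2-fold higher in GFP-high than in GFP-low AdvFB cells (1.80%) and 51 lower (1.39%), with a median log2 ratio of 0.07. The balance depends on the minimum, with 201 higher and 222 lower at 10 CPM, and on the cells, with 137 higher and 144 lower in those with Xist UMIs alone. This compares 325 cells of 1 library with 102 of another, and the count lower was 33 without 15 GFP-low cells that formed a cluster with Myocd, the smooth muscle coactivator, at a finer resolution, also left out after the data were seen. Ly6a was 6.18-fold (4.91 to 7.89) and Ly6c1 5.53-fold (3.83 to 8.28) higher in GFP-high cells, and Pi16 2.31-fold (2.02 to 2.66). In GFP-low only 4 cells held Ly6a and 1 held 53.9% of its UMIs, 56.7% of the Ly6c1 UMIs were in 1 cell, and 45% of the Pi16 UMIs were in 1 cell. Without the cell with the most UMIs of each gene the GFP-low level was 13.9 CPM for Ly6a, 5.17 CPM for Ly6c1 and 52.5 CPM for Pi16. Il33, an alarmin cytokine of stromal cells, was at 82.7 CPM in GFP-high and 27 CPM in GFP-low AdvFB cells, and Aldh1a2, a retinoic acid-producing enzyme, at 103 CPM in GFP-high and 39.5 CPM in GFP-low AdvFB cells. C3, the central complement component, lay at 102 CPM in GFP-high and 5.87 CPM in GFP-low AdvFB cells, and Dlk1, an imprinted Notch-related ligand, at 97.7 CPM in GFP-high and 11.3 CPM in GFP-low AdvFB cells. In the adventitial progenitor list, 6 of 24 measured members were higher in GFP-high and none lower (median 0.64). The difference thus covered part of that list, and Lum, Col14a1 and Ebf1 did not pass 2-fold. Ccl21a, at 100.4 and 0 CPM, had its UMIs in 3 GFP-high cells (0.923%) and describes those cells. Lower in GFP-high were Smoc1, a BMP-modulating matrix protein, at 20.3 CPM in GFP-high and 134 CPM in GFP-low AdvFB cells, and Rgs5, a regulator of G-protein signalling known from pericytes, at 12.3 CPM in GFP-high and 83.4 CPM in GFP-low AdvFB cells. The integrin chain Itga8 was found at 20.99 CPM in GFP-high and 93.1 CPM in GFP-low AdvFB cells, and the glutamate receptor subunit Gria1 at 31.4 CPM in GFP-high and 128 CPM in GFP-low AdvFB cells. Pericyte markers had 2 of 6 lower and none higher in GFP-high cells (median -0.85). Smooth muscle contractile genes likewise had 2 of 7 lower and none higher (median -0.53). The part of either list in the difference was not tested. Egfem1, at 122 CPM in GFP-high and 0.783 CPM in GFP-low AdvFB cells, also differed between the gates in MatFB cells, at 381 and 12.2 CPM, and was 11208 and 5443 CPM in MyoFB cells, which were many more in the GFP-high library. Of the 995 GFP-high AdvFB UMIs of Egfem1, 531 were in 6 cells, those of the small cluster of group 5 described below; the part of free RNA in the rest was not tested.

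Both libraries held cells with Y-linked transcripts and cells with Xist, so the gates could be compared within each. Ly6a stood at 214 CPM in 187 GFP-high and 20.7 CPM in 57 GFP-low AdvFB cells with Y-linked UMIs, and at 147 CPM in 85 and 11.2 CPM in 25 cells with Xist UMIs. Smoc1 was at 13.1 and 148 CPM in the cells with Y-linked UMIs and at 24.5 and 142 CPM in those with Xist UMIs. Pi16, C3, Dlk1, Itga8 and Gria1 also kept their side in both sets of cells. Both sets are parts of the same cells and libraries in which these differences were seen, so this is no independent check of them. Igfbp5 did not move alike, at 484 CPM in GFP-high and 95.3 CPM in GFP-low cells with Y-linked UMIs and at 395 and 390.0 CPM in those with Xist UMIs. Vav3 was lower in GFP-high in both sets, but under 2-fold in cells with Y-linked UMIs, at 133 and 234 CPM. In cells with Xist UMIs it was at 52.4 and 257 CPM.

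**Figure D4:**
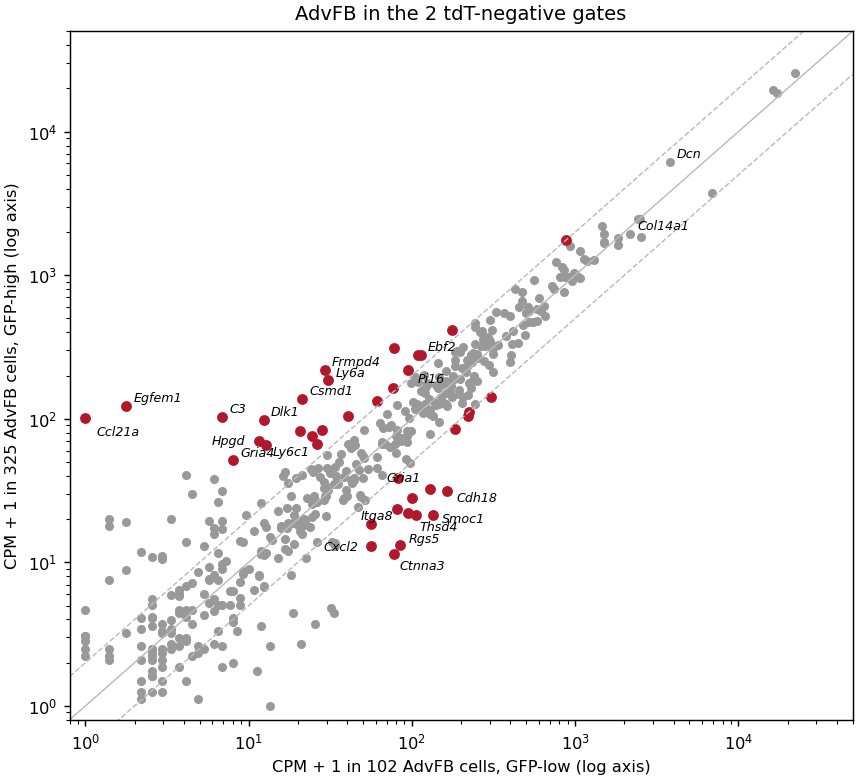
CPM plus 1 in GFP-high (vertical, log axis) and GFP-low (horizontal, log axis) AdvFB cells for named genes and list members. The line of equality and dashed lines at 2-fold are drawn, and measured genes that differ at least 2-fold between the gates are red. Ly6a, Ly6c1 and Pi16 lie above the 2-fold lines, Smoc1, Rgs5 and Itga8 below them, and Dcn and Col14a1 between them.

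The AdvFB cells were not uniform. Clustering of the 431 cells alone gave 7 groups at a Leiden resolution of 0.5, numbered by size. Their leading genes chose them and are given as a description, without a cell type name, and their sizes are not compared between gates because genes that differ by gate entered the clustering. Group 4, of 77 cells, had the highest Pi16 and Ly6a. Pi16 lay at 711 CPM in group 4 against 86.7 CPM in the other AdvFB cells, Ly6a at 516 against 68.6 CPM, and Ly6c1 at 200.4 against 20.1 CPM. Dpp4, a surface peptidase used with Pi16 to mark progenitor-like fibroblasts, was at 34.1 CPM there and at 0 in the other 6 groups. Dcn, in contrast, spanned all groups, between 1912 CPM in group 6 and 8002 CPM in group 4.

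Group 3, of 79 cells, led in genes of the complement list and in Ccbe1. Ccbe1, a secreted factor of lymphatic vessel growth, was found at 308 CPM against 38.95 CPM in the other AdvFB cells, C3 at 249 against 37.7 CPM, and C4b at 101 against 19.3 CPM. The chemokine genes Ccl21a and Ccl19 headed its gene list with 99.9% and 100.0% of their UMIs in 1 cell each. Group 1, of 97 cells, was led by Gabrg3, Adcy8 and Nkain3. Among its 12 leading genes, Hhip, which binds hedgehog ligands, ranked 4 at 386 against 163 CPM, and Ptch1 ranked 12 at 257 against 125 CPM. Gli1, also of the hedgehog pathway, was at 52.45 against 46.4 CPM. Group 1 had the lowest Fos level of the 7 groups, at 428 CPM. Group 2, of 86 cells, had inducible genes among its leading genes, with Nr4a1, an orphan nuclear receptor of the immediate early list, at 417 against 73.6 CPM and Il6 at 190.2 against 26.2 CPM. Fos, which was not among its 12 leading genes, was at 3061 CPM. Its S100a9 and S100a8 values had 100.0% and 99.3% of their UMIs in 1 cell each.

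The 3 smaller groups rested on fewer cells. Group 5, of 50 cells, had Col15a1 at 674 CPM. Its 8 leading genes were Myl7, Csmd1, Tnnt2, P3h2, Tbx20, Nrxn3, Egfem1 and Tenm4. Of these, Myl7, Tnnt2 and Tbx20 are known from heart muscle, and Csmd1, Nrxn3, Egfem1 and Tenm4 were lower in AdvFB than in MyoFB cells of both gates. The level of Egfem1 in the group rested on few cells, with 532 of its 554 UMIs in 8 cells that formed a cluster of their own at a resolution of 1.0. The same 8 cells held 1208 of the 1217 Csmd1 UMIs of the group and none of Myl7, Tnnt2 or Tbx20. In the whole group 1 cell held 45.6% of the Myl7 UMIs and 1 cell held 51.9% of the Tnnt2 UMIs. Group 6, of 26 cells, carried alveolar fibroblast genes, with Limch1 at 1299 against 121 CPM, Tcf21 at 419 CPM, Lum at 17.7 CPM and the lowest Dcn of the 7. Group 7 held 16 cells. All 16 were GFP-high cells, all had Y-linked UMIs, and their median of 14033 UMIs was the lowest of the groups. Its leading gene Grm7, a metabotropic glutamate receptor, stood at 1059.9 against 6.06 CPM, and Thbs4, a thrombospondin of tendon and vessel matrix, at 377 against 1.99 CPM. Lum was 1949 CPM and Pdgfra 749 CPM there, with Col14a1 at 113 CPM and Ly6a at 0. Of the other markers, Dcn was at 7011 CPM, Serpinf1 at 252 CPM and Pi16 at 42.7 CPM there. The same 16 cells formed a group at resolutions of 0.3 and 1.0 as well.

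**Figure D5:**
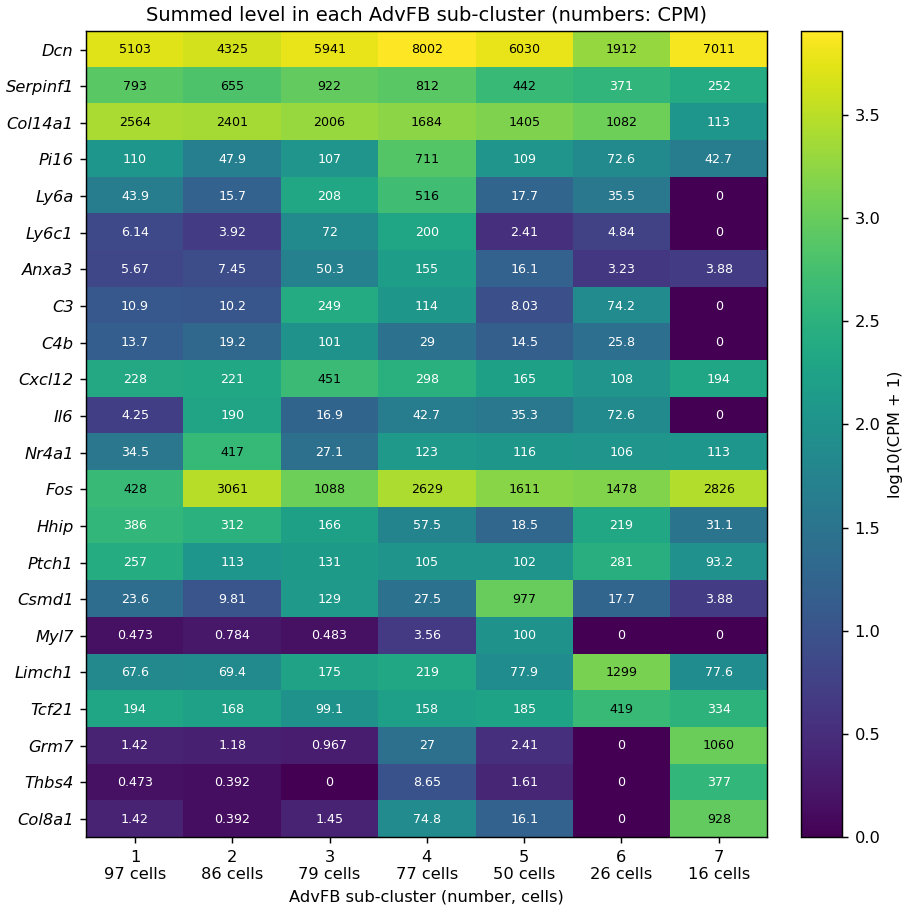
Summed level of marker and leading genes (rows) in the 7 groups of AdvFB cells (columns, with their number of cells), with CPM as numbers and log10 of CPM plus 1 as colour. Pi16, Ly6a and Ly6c1 are highest in group 4, C3 and C4b in group 3, Limch1 in group 6, and Grm7 and Thbs4 in group 7.

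Cell to cell, the genes whose level followed the summed level of the 5 markers most closely, each left out of its own sum, were ranked by Spearman's rank correlation averaged over the 325 GFP-high and 102 GFP-low AdvFB cells thinned to 5000 UMIs. They were Col3a1 (0.486), Sparc (0.444), Ctsl (0.421), Col1a2 (0.414), Serpinf1 (0.395) and Col1a1 (0.377). Sparc is a collagen-binding matricellular protein and Ctsl a lysosomal protease. Serpinf1 is the only one of the 5 markers among these genes. Dcn and Col14a1 had the highest levels of the 5 in both gates, as given above, and Ly6a the lowest. The lowest value was that of Mylk, at -0.352. The cells of a gate share a library, and these values are a description.

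The 4 AdvFB cells of the GFP-high tdT-high gate were too few for a comparison. All 5 markers were found in 3 of them. Together they held 121998 UMIs, with 90.2 CPM of the tdTomato transcript (45.0 to 161, from 11 UMIs), against 0.614 CPM in GFP-high and 0.783 CPM in GFP-low tdT-negative AdvFB cells. Fgf18 was at 57.4 CPM in them (23.1 to 118, from 7 UMIs). The gate was sorted as tdT-high, so its higher tdTomato level was set by the sort. The part of free RNA and of doublets in the Fgf18 level was not tested.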

How the data were processed

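The kit was 10x Genomics 3' version 3.1, per the labels' protocols, and the submitters' processing notes name Cell Ranger 7.0.0 and mm10. The authors deposited 1 matrix of raw UMI counts (31730 genes by 6142 cells), and their deposited table gives each cell's gate, cell type, UMI count and percent of mitochondrial UMIs. The matrix sums equalled the deposited counts in all 6142 cells. The deposited cells held 2504 to 7499 genes, so cells had been filtered, but neither the filter nor the calling of cell types is given in the sources used here. Free RNA was not removed.

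UMIs were summed per class and gate, divided by the total and compared as log2 of CPM plus 1. Poisson, Clopper-Pearson and conditional binomial intervals are exact at 95% and cover counting error only. Scrublet marked 10 of 6142 cells and was not used. Clusters used scanpy 1.11.5 (2000 variable genes, 20 components, 15 neighbours, Leiden resolution 0.5). Coordinates come from GENCODE M21 (30176 symbols matched) and promoters from RefSeq, both on GRCm38. On simulated data, 58 of 58 genes set 4-fold higher than both classes and 42 of 44 set 2.5-fold higher were counted, and 0 of 2945 unchanged genes. Those counts were Poisson draws around the MatFB levels of each gate, used for all 3 classes, without spread between cells or libraries. They check the counting steps and give no error rate for these data.

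Genes were named by rank of ratio, without genes that are sex-linked, unnamed or of mitochondria, ribosomes or haemoglobin, with the fixed markers and the leading members of 27 lists; further list members, and the genes given by cluster, were chosen after their values were seen. Levels without the cell with the most UMIs of a gene were added after the data were seen. Some genes that the rule names are not reported here. The cells, lists and rules were chosen with earlier results of these data known. Alternatives covered scaling (edgeR 4.0.16, DESeq2 1.42.0, both for factors only), the pseudocount, the minimum level, cell filters, thinning, the Acta2 limit, the types in each class and the cells with Y-linked or Xist UMIs.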

Additional observations from a re-analysis of the deposited data

Results flagged for a closer look

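Among the named genes and list members, 4 passed 2-fold on opposite sides of another class in the 2 gates, and in each the difference between the gates was not tested. Aspn, asporin, had a log2 ratio over MyoFB cells of 1.14 in GFP-high and -1.65 in GFP-low, with 693 and 596 CPM in AdvFB cells against 313 and 1866 CPM in MyoFB cells. Heyl, a Notch target, had log2 ratios over MatFB cells of -1.42 in GFP-high and 2.44 in GFP-low, with 22.5 and 79.8 CPM in AdvFB cells against 61.8 and 13.9 CPM in MatFB cells. Igfbp6, an IGF-binding protein, had log2 ratios over MatFB cells of -1.28 in GFP-high and 2.31 in GFP-low, with 122 and 162 CPM in AdvFB cells against 298 and 31.9 CPM in MatFB cells. Rbp4, a retinol carrier, had log2 ratios over MatFB cells of -1.18 in GFP-high and 1.71 in GFP-low, with 149.8 and 119 CPM in AdvFB cells against 341 and 35.5 CPM in MatFB cells. In Igfbp6 and Rbp4 the AdvFB levels of the gates were close to each other and the MatFB levels were not, beside a MatFB class of which 110 of 170 cells were MatFB-Im,Cuff in GFP-high and 205 of 1055 in GFP-low.

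The 4 AdvFB cells of the GFP-high tdT-high gate, which no comparison used, held 90.2 CPM of the tdTomato transcript and 57.4 CPM of Fgf18. In GFP-high and GFP-low tdT-negative AdvFB cells tdTomato was at 0.614 and 0.783 CPM and Fgf18 at 3.19 and 3.13 CPM. The sort on tdTomato set the difference in tdTomato, so that one is no finding. The Fgf18 level rested on the few UMIs given above, and the part of free RNA and of doublets in it was not tested.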

How the results depend on the processing

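Of 160 counts recomputed over the 4 comparisons and their alternatives, 136 stayed within 1.5 times. The minimum level moved every count. At 10 CPM, 447 genes were higher and 454 lower than in MatFB cells, 745 and 701 than in MyoFB cells, 275 and 131 than in both, and 201 and 222 between the gates. With no minimum these were 780 and 744, 1207 and 1198, 429 and 215, and 674 and 851. Without MatFB-Im,Cuff cells, an alternative chosen after the data were seen that left 60 and 850 MatFB cells, 349 genes were higher and 347 lower than in MatFB cells. With only the most frequent MyoFB type of each gate, 239 genes were lower than in MyoFB cells. The comparison of gates moved most: with all AdvFB cells, contractile ones included, 122 genes were higher and 171 lower in GFP-high, and in cells with Xist UMIs alone, 85 and 25 in number, 137 and 144. Without the 15 GFP-low cells of a Myocd-bearing cluster found at a resolution of 1.0, chosen after the data were seen, 33 genes were lower in GFP-high.

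Of 3680 ratios of named genes, 2460 lay within the counting interval of the value reported, 1217 lay outside it and 3 reversed. The interval was computed without the 1 CPM that is added to the ratios. Each of the 2 changed minimum levels, which alter no ratio, therefore had 34 ratios outside it. The 1217 thus includes this mismatch and overstates the dependence on processing. The reversed ones were Cxcl2 between the gates, with a log2 ratio of 4.63 in cells with Xist UMIs alone, Thsd4 between the gates, at 0.11 without the Myocd-bearing cluster, and Nrcam over MyoFB cells in GFP-low, at 1.96 with the most frequent MyoFB type alone. The cause was not tested. Counts of list members stayed within 1.5 times in 2006 of 2160 cases. Thinning lowered 15 of 20 shares of cells by more than their interval, and the number of AdvFB clusters was 4 at a resolution of 0.3 and 12 at 1.0.

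No paired analysis was possible because each gate has 1 library, and no replicate could be left out for the same reason. Depth limits genes under a few CPM, most of all in the 102 GFP-low AdvFB and 66 GFP-low MyoFB cells.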

Other observations

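Retinoid genes were few above the minimum, with 3 of 17 measured against each class, 1 lower than in MatFB cells, and 2 higher and 1 lower than in MyoFB cells. Aldh1a2, which makes retinoic acid, was at 103 CPM in GFP-high and 39.5 CPM in GFP-low AdvFB cells, against 1.55 and 0 CPM in MatFB cells and 0.703 and 0 CPM in MyoFB cells. Its relative Aldh1a3 was at 37.6 and 18.4 CPM in AdvFB cells, against 0.932 and 1.95 CPM in MatFB cells and 0.418 and 1.34 CPM in MyoFB cells. Aldh1a1, in contrast, was at 42.4 and 38.3 CPM in AdvFB cells, against 111 and 150.3 CPM in MatFB cells. Aldh1a2, in GFP-low, and Aldh1a3, in both gates, were under the minimum against both classes, so neither was measured or counted there. By level alone, the 3 related enzymes lay on different sides in these classes.

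Sox9, a transcription factor of cartilage and tendon progenitors, was at 26.1 CPM in GFP-high and 36.8 CPM in GFP-low AdvFB cells, against 4.04 and 0.380 CPM in MatFB cells and 4.31 and 10.7 CPM in MyoFB cells. Of the other cartilage and tendon markers, Acan, Matn1 and Tnmd were at 0 UMIs in AdvFB cells of both gates.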
